A study of Arabidopsis thaliana with 12 samples.

Results

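A set of 3 co-chaperone genes of Arabidopsis thaliana is described here across genotype and heat: ROF2 (AT5G48570, chromosome 5), HOP3 (AT4G12400, chromosome 4) and a DNAJ protein gene (AT2G20560, chromosome 2). They were chosen by their probe sets, 248657_at, 254839_at and 263374_at, which makes 3 of the 22746 probe sets analysed, with 1 probe set per gene. Transcripts were measured on Affymetrix arrays in above-ground parts of 8-week-old plants of the Col-0 background. The 4 groups were heated msh1 recA3 double mutants (n = 3), untreated double mutants (n = 4), heated wild type (n = 3) and untreated wild type (n = 2). MSH1 and RECA3 encode proteins that maintain organelle DNA, and the double mutant carries mutations in both. All plants were grown at 24 °C, and heated plants were exposed to 37 °C. Heat lasted 2 h by the design text but approximately 24 h by the protocol of the samples, and nothing in the labels settles which. Neither mutated gene was analysed here, so the genotype labels were not checked against them, and the labels do not say whether plants were pooled.

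Hsp70 and Hsp90 are chaperones that use ATP to hold and fold client proteins, and co-chaperones steer them. J proteins (DNAJ) bring clients to Hsp70 and stimulate its ATPase. HOP proteins hold Hsp70 and Hsp90 side by side through tetratricopeptide repeats, so that a client can pass between them. ROF2, also called FKBP65, belongs to the FK506-binding peptidyl-prolyl isomerases and carries the same kind of repeat, through which such proteins bind Hsp90. In Arabidopsis, ROF2 and HOP3 are known from work on heat stress. The role of AT2G20560 beyond its J protein family is not described here.

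Values are RMA signals on the log2 scale, where a difference of 1 is a doubling of signal. The labels call the replicates biological. In such bulk samples, fewer cells of a type and less RNA per cell cannot be told apart. The first principal component held 71.1% of the variance and separated heated from untreated arrays, and the second held 10.2%. On the second, heated double mutant replicate 3 scored 8.73, against -22.5 and -26.8 for replicates 1 and 2, while heated wild type scored 13.5 to 16.3. Untreated double mutant replicates 3 and 4 scored -22.9 and -30.9, against -2.95 and -0.964 for replicates 1 and 2. Heated double mutant replicate 3 thus stands apart from others of its label. Untreated double mutants split into replicates 1 and 2 and replicates 3 and 4, and which pair stands apart is not settled. Co-chaperone values moving over 1.5 times without double mutant heated replicate 3 or untreated replicate 3 or 4 are given both ways or as ranges. The shoot markers RCA and LHCB4.1, the 2 measured of 6, read 13.02 to 13.85 on every array. The root hair markers EXPA7 and EXPA18 read 3.52 to 4.13, while the lower quartiles of the arrays ranged over 3.67 to 3.79. The other measured root marker, PYK10, read higher, at 5.94 to 8.88.

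ROF2 transcript was in the lower to middle range of the arrays without heat and near the top after it, in both genotypes. In heated double mutants ROF2 read 12.96, 12.99 and 12.62 (replicates 1 to 3), and in untreated double mutants it read 4.30, 4.23, 4.81 and 5.80 (replicates 1 to 4). In heated wild type it read 12.81, 12.90 and 12.94, and in untreated wild type 4.21 and 4.23. Every heated array lay far above every untreated one, and among untreated arrays double mutant replicates 4 and 3 were the highest. Heat raised ROF2 by 8.07 ± 0.30 in the double mutant (moderated SE of limma, 95% interval 7.41 to 8.73, adjusted p = 4.75e-09). In the wild type the rise was 8.66 ± 0.36 (7.88 to 9.45, adjusted p = 1.56e-08). These correspond to 269-fold and 406-fold on the linear signal scale. Counted from the largest rise of all probe sets, ROF2 ranked 12 in the double mutant and 7 in the wild type.

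HOP3 transcript was likewise near the top of the range on heated arrays and in its lower to middle part on untreated ones. In heated double mutants it read 12.06, 11.98 and 11.38, against 3.95, 4.04, 4.15 and 4.97 in untreated double mutants. In heated wild type it read 11.37, 11.42 and 11.56, against 4.09 and 3.89 in untreated wild type. Heated and untreated arrays did not overlap, heated double mutant replicate 3 was the lowest of its group, and untreated double mutant replicate 4 was the highest of its group. The rise was 7.53 ± 0.23 in the double mutant (7.01 to 8.04, adjusted p = 1.04e-09), or 185-fold. In the wild type it was 7.46 ± 0.28 (6.84 to 8.07, adjusted p = 7.51e-09), or 176-fold. HOP3 ranked 16 and 20 among all probe sets in these comparisons.

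The J protein gene AT2G20560 had the smallest rise of the 3 genes, with the tightest error. Its signals were 10.80, 11.09 and 11.10 in heated double mutants, against 4.35, 4.32, 3.85 and 4.51 in untreated double mutants. They were 11.23, 11.25 and 11.21 in heated wild type, against 4.61 and 4.42 in untreated wild type. Again no untreated array came near a heated one, and the 3 heated wild-type arrays lay within 0.04 of each other. Heat raised AT2G20560 by 6.74 ± 0.14 in the double mutant (6.43 to 7.05, adjusted p = 4.17e-11), or 107-fold. In the wild type the rise was 6.72 ± 0.17 (6.35 to 7.09, adjusted p = 2.98e-10), or 105-fold, and the rank was 24 in both genotypes.

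All 3 genes therefore passed the test in both genotypes, where 34.0% of all probe sets were called in the double mutant (13.8% higher, 20.2% lower) and 26.5% in the wild type (13.7% higher, 12.8% lower). The median over all probe sets was 0.01 in each. Heated and untreated groups did not overlap for 38.3% of probe sets in the double mutant and 52.4% in the wild type. The genes were chosen with these rises known. Within their own arrays, untreated signals stood at percentiles 28.7 to 56.0 and heated ones at 97.8 to 99.8. No detection calls were used, so whether the untreated signals stand above background was not tested.

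**Figure D1:**
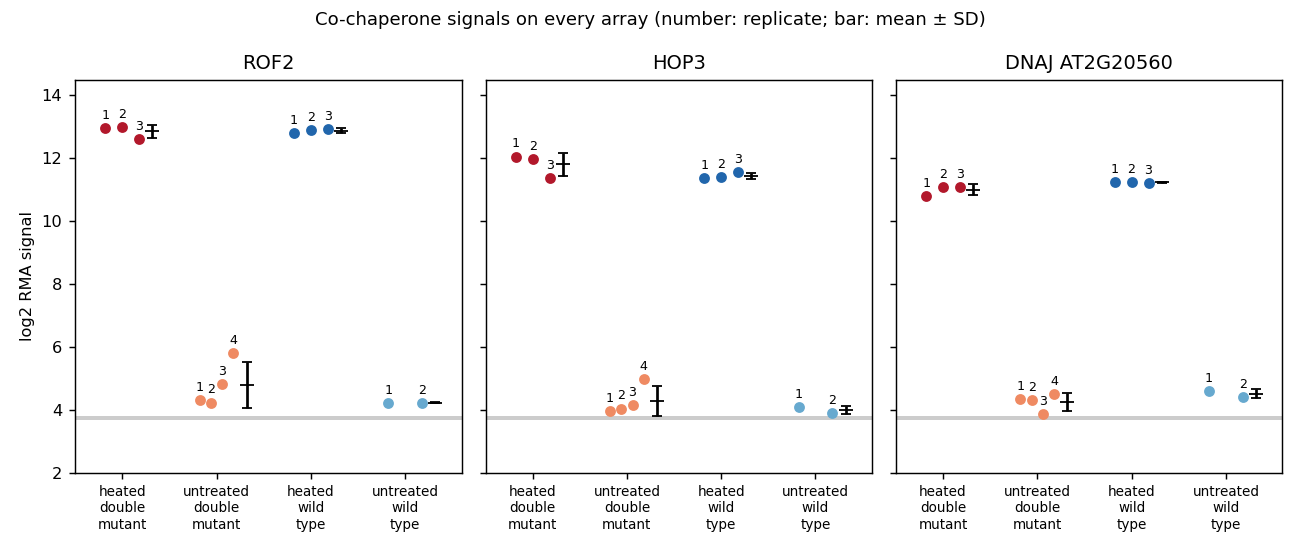
Log2 RMA signal of ROF2, HOP3 and the J protein gene AT2G20560 on each of the 12 arrays. Points are arrays numbered by replicate, black bars are the group mean ± SD, and the grey band is the range of the arrays' lower quartiles (3.67 to 3.79). Heated arrays read 10.80 to 12.99 and untreated arrays 3.85 to 5.80, with untreated double mutant replicate 4 the highest of its group for each gene.

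Whether the double mutant differs from the wild type was asked after heat, without heat and in the size of the heat response. None of the 3 genes passed the test in any of these. The test called 0.897% of all probe sets after heat, 2.69% without heat and 0.0747% for the difference of the heat responses. At an unadjusted p under 0.05, before correction, 2809, 4233 and 2372 probe sets passed, and none of the 3 genes was among them.

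After heat, ROF2 averaged 12.86 ± 0.21 in double mutants and 12.88 ± 0.07 in wild type (SD, n = 3 each). The difference was -0.03 (95% interval -0.73 to 0.68, adjusted p = 0.986), with overlapping groups, and 0.093 without heated double mutant replicate 3 (adjusted p = 0.938). HOP3 averaged 11.80 ± 0.37 in heated double mutants and 11.45 ± 0.10 in heated wild type, a difference of 0.36 (-0.19 to 0.91, adjusted p = 0.645). Double mutant replicates 1 and 2 lay above all 3 wild-type arrays for HOP3, and replicate 3 lay among them. Without heated double mutant replicate 3, the HOP3 difference was 0.57 (adjusted p = 0.243). Without both that array and untreated double mutant replicate 4, a setting chosen after seeing the data, it was 0.57 ± 0.11 and passed (adjusted p = 0.0164). Under the other alternatives the HOP3 difference did not pass. AT2G20560 averaged 10.999 ± 0.17 in heated double mutants and 11.23 ± 0.02 in heated wild type. All 3 double mutant arrays lay below all 3 wild-type arrays, a separation seen for 15.1% of all probe sets, and the difference of -0.23 (-0.56 to 0.10) did not pass (adjusted p = 0.609). Without heated double mutant replicate 1, the lowest of its group, the difference was -0.13 (adjusted p = 0.886).

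Without heat, ROF2 averaged 4.79 ± 0.72 in double mutants (n = 4) and 4.22 ± 0.02 in wild type (n = 2). The difference was 0.57 (-0.18 to 1.32, adjusted p = 0.405). No double mutant array lay below the wild type, but the lowest of them and the higher wild-type array both read 4.23, and 29.5% of all probe sets had groups without overlap here. Without untreated double mutant replicate 4 the ROF2 difference was 0.23 (adjusted p = 0.602), and without replicate 2 it was 0.75. HOP3 averaged 4.28 ± 0.47 in untreated double mutants and 3.99 ± 0.14 in untreated wild type, a difference of 0.28 (-0.30 to 0.87, adjusted p = 0.619). It came to 0.05 without untreated double mutant replicate 4 (adjusted p = 0.940) and to 0.39 without replicate 1. AT2G20560 averaged 4.26 ± 0.28 in untreated double mutants and 4.51 ± 0.14 in untreated wild type, a difference of -0.26 (-0.61 to 0.09, adjusted p = 0.425), and the groups overlapped. It was -0.12 without untreated double mutant replicate 3 (adjusted p = 0.639) and -0.34 without replicate 4 (adjusted p = 0.349). Over all alternatives the AT2G20560 difference ranged from -0.46 to -0.12 without passing. The 3 measured of 5 root markers summed to 14.8 to 16.4 on untreated double mutant arrays and 14.3 to 14.6 on untreated wild-type arrays (summed log2 signals). PYK10, a beta-glucosidase of root and seedling ER bodies, read 8.32 ± 0.63 in untreated double mutants and 6.60 ± 0.32 in untreated wild type. EXPA7 (3.69 against 4.07) and EXPA18 (3.69 against 3.80) went the other way without passing, so the higher sum came from PYK10. The part of PYK10 in the co-chaperone values was not tested.

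The heat responses of the genotypes were also compared with each other. For ROF2 the double mutant's response minus that of the wild type was -0.59 (-1.62 to 0.43, adjusted p = 0.700), and without untreated double mutant replicate 4 it was -0.26 (adjusted p = 0.796). For HOP3 it was 0.07 (-0.73 to 0.87, adjusted p = 0.963), and 0.29 without heated double mutant replicate 3 or 0.31 without untreated double mutant replicate 4. Leaving out single arrays, the HOP3 value ranged from -0.05 to 0.31, and over all alternatives it reached 0.52 without passing. For AT2G20560 it was 0.03 (-0.46 to 0.51, adjusted p = 0.977), and it took either sign, -0.11 to 0.12, when single arrays were left out. Over all alternatives the AT2G20560 value reached 0.24 without passing. Each interval holds 0 and differences of either sign, and a p above the threshold does not show that the responses are equal. In the order of group means, heated wild type and heated double mutant of ROF2 were neighbours that did not differ beyond their spread, followed by untreated double mutant and untreated wild type. The order for HOP3 was heated double mutant, heated wild type, untreated double mutant and untreated wild type. For AT2G20560 the wild type came first within each treatment. For each gene the genotypes within a treatment did not pass the test, whereas the treatments within a genotype did.

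**Figure D2:**
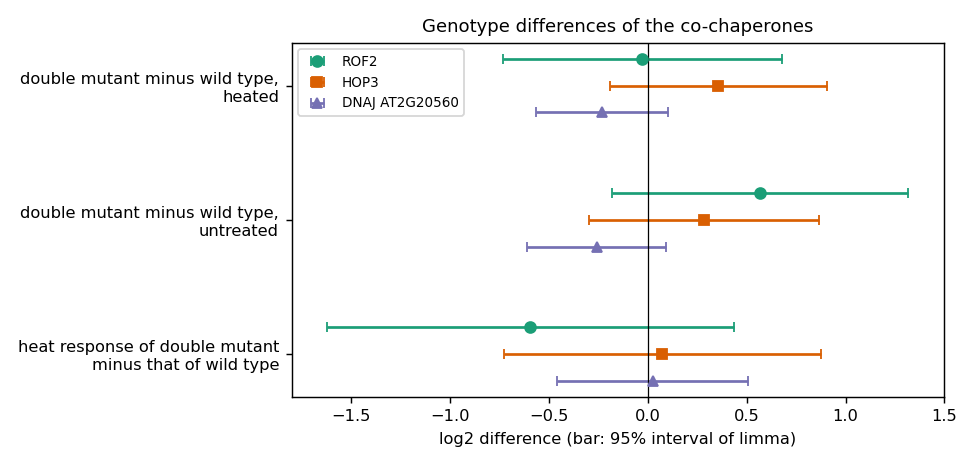
Genotype differences of ROF2, HOP3 and AT2G20560 on the log2 scale, with points for the estimate and bars for limma's 95% interval. Rows give double mutant minus wild type after heat, the same without heat, and the heat response of the double mutant minus that of the wild type. All 9 intervals include 0, and the widest is that of the ROF2 responses (-1.62 to 0.43).

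Of the arrays left out above, untreated double mutant replicate 4 lay above the mean of the other 3 arrays of its group by 1.35 for ROF2, 0.93 for HOP3 and 0.33 for AT2G20560. It was the highest of its group for all 3 HOP genes, for 5 of 7 small heat shock proteins and for 24.3% of all probe sets. Heated double mutant replicate 3 differed from the mean of the other arrays of its group by -0.36 for ROF2, -0.64 for HOP3 and 0.15 for AT2G20560. That array was the lowest of its group for 3 of 3 HOP genes, for 0 of 7 small heat shock proteins and for 35.1% of all probe sets. Without untreated replicate 4, the heat response in the double mutant was 8.41 for ROF2 and 7.76 for HOP3. Without untreated replicate 3 it was 8.08 for ROF2, 7.48 for HOP3 and 6.61 for AT2G20560.

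**Figure D3:**
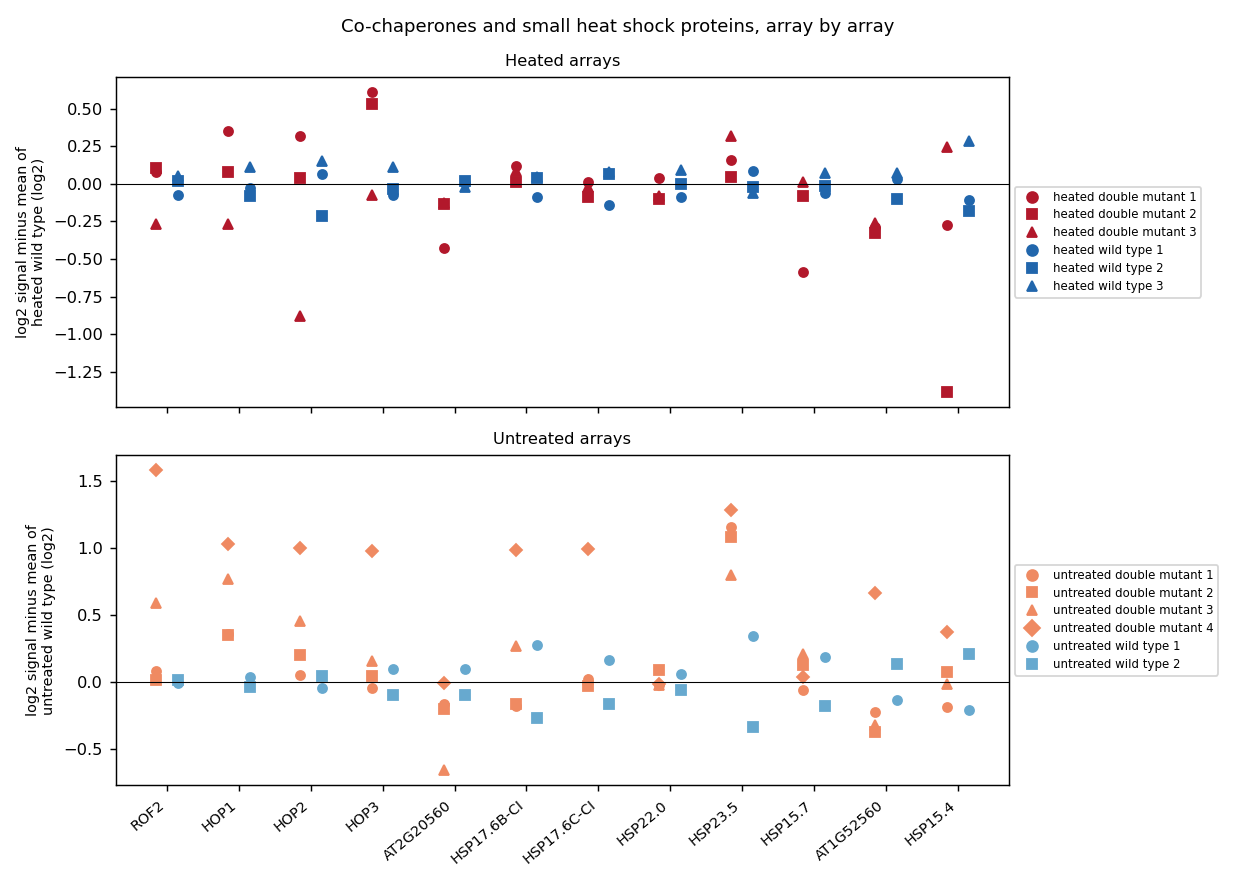
Each array's log2 signal minus the wild-type mean of the same treatment, for the 3 co-chaperones, HOP1, HOP2 and 7 small heat shock proteins. Heated arrays are in the upper panel and untreated arrays in the lower one, with double mutants drawn to the left of wild type. Untreated double mutant replicate 4 stands highest for ROF2, HOP1, HOP2 and HOP3, and heated double mutant replicate 3 lies lowest of its group for the same genes.

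The paralogs of HOP3 rose too, by less. HOP1 (AT1G12270) rose by 1.07 ± 0.18 in the double mutant and 1.64 ± 0.21 in the wild type. HOP2 (AT1G62740) rose by 3.16 ± 0.27 in the double mutant and 3.76 ± 0.33 in the wild type. HOP3 thus had the largest heat response of the family in both genotypes, at 7.53 and 7.46, and these sizes are set side by side without a test of their difference.

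ROF2 was the 1 measured gene of 4 listed FKBPs with tetratricopeptide repeats. Its partner ROF1 was not analysed here, and neither were the 7 Hsp90 genes listed, since no probe set carried their names alone. Among co-chaperones of Hsp90, AHA1-like (AT3G12050), a homologue of the activator of the Hsp90 ATPase, rose by 3.81 in the double mutant and 3.92 in the wild type. SGT1A, an Hsp90 partner in plant immunity, rose by 3.25 and 3.58. CYP40, a cyclophilin with tetratricopeptide repeats, rose by 1.96 and 2.69 on its brighter probe set, while the dimmer one gave 0.09 and 0.14 and did not pass. P23-1, which stabilises the closed form of Hsp90, did not pass in the double mutant (-0.12) and rose by 0.39 in the wild type, a call lost under 7 of 20 alternatives.

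On the Hsp70 side, all 4 measured of 18 listed genes rose in both genotypes, where 13.8% of all probe sets rose in the double mutant and 13.7% in the wild type. HSP70-3, a cytosolic Hsp70, rose by 4.39 in the double mutant and 4.18 in the wild type. The smallest rise was that of HSP70-2, by 2.11 in the double mutant and 2.73 in the wild type. HSP70-16 and HSP70-17, relatives of the Hsp110 type, rose by 3.22 and 2.97 in the double mutant and by 3.41 and 3.95 in the wild type. Without heat, HSP70-17 was 1.14 higher in the double mutant, which did not pass (adjusted p = 0.126).

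Other J protein genes moved in both directions. Of 15 measured besides AT2G20560, from 31 listed, 7 rose, 2 fell and 6 did not pass in the double mutant, and the counts were equal in the wild type. Of all probe sets, 13.8% rose and 20.2% fell in the double mutant, and 13.7% rose and 12.8% fell in the wild type. The called genes were not all shared: AT3G08910 was called in the double mutant (0.66) and not in the wild type (0.14), and ERDJ2A was called in the wild type (0.45) and not in the double mutant (0.15). The ERDJ2A call was lost under 6 of 20 alternatives, and ERDJ2A passed in the double mutant under 1 of 20. The difference of responses passed for neither gene. AT3G14200 rose by 3.62 in the double mutant and 4.70 in the wild type, the largest values after AT2G20560 among the J protein genes listed. J protein genes outside the list were not counted, so no rank within the whole family is given. AT2G33735 rose by 2.21 and 2.93, and ERDJ3B, a J protein of the endoplasmic reticulum, by 1.78 and 2.18. AT3G12170 (-0.50 in the double mutant, -0.60 in the wild type) and AT5G05750 (-0.39 and -0.41) were called lower with heat. After heat AT3G12170 averaged 3.75 in the double mutant and 3.76 in the wild type, within the range of the arrays' lower quartiles (3.67 to 3.79). Centred on 4 reference genes, neither of the 2 genes passed in the double mutant, at -0.17 for AT3G12170 and -0.065 for AT5G05750. Of those 4 reference genes, however, 2 were themselves called lower with heat in the double mutant, and the median of the 4 was -0.31. In the wild type AT3G12170 did not pass without untreated wild type replicate 2, and AT5G05750 lost its call under 6 of 20 alternatives.

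After heat AT3G14200 was 1.08 lower in the double mutant than in the wild type, just short of the threshold (adjusted p = 0.0510), and it passed under 5 of 20 alternatives. The difference of its heat responses was -1.08 (adjusted p = 0.296). AT2G20560, of the same family, differed by -0.23 after heat.

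Over the 25 measured genes of the Hsp70 and Hsp90 system other than the 3 co-chaperones, from 79 listed, 16 rose, 2 fell and 7 did not pass in the double mutant, with a median of 1.07. In the wild type 17 rose, 2 fell and 6 did not pass, with a median of 1.64. Over all probe sets the shares were 13.8% higher and 20.2% lower in the double mutant and 13.7% higher and 12.8% lower in the wild type, with a median of 0.01 in each. Of called list genes, 14 of 18 in the double mutant and 13 of 19 in the wild type passed under every alternative checked. The checks left out the mean of a gene's probe sets, and the brightness filter for genes it removed. None of the 25 was called between the genotypes after heat, without heat or in the difference of responses. The BAG and ClpB genes of the list were not analysed here, and neither were heat shock factor genes, which are outside it.

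**Figure D4:**
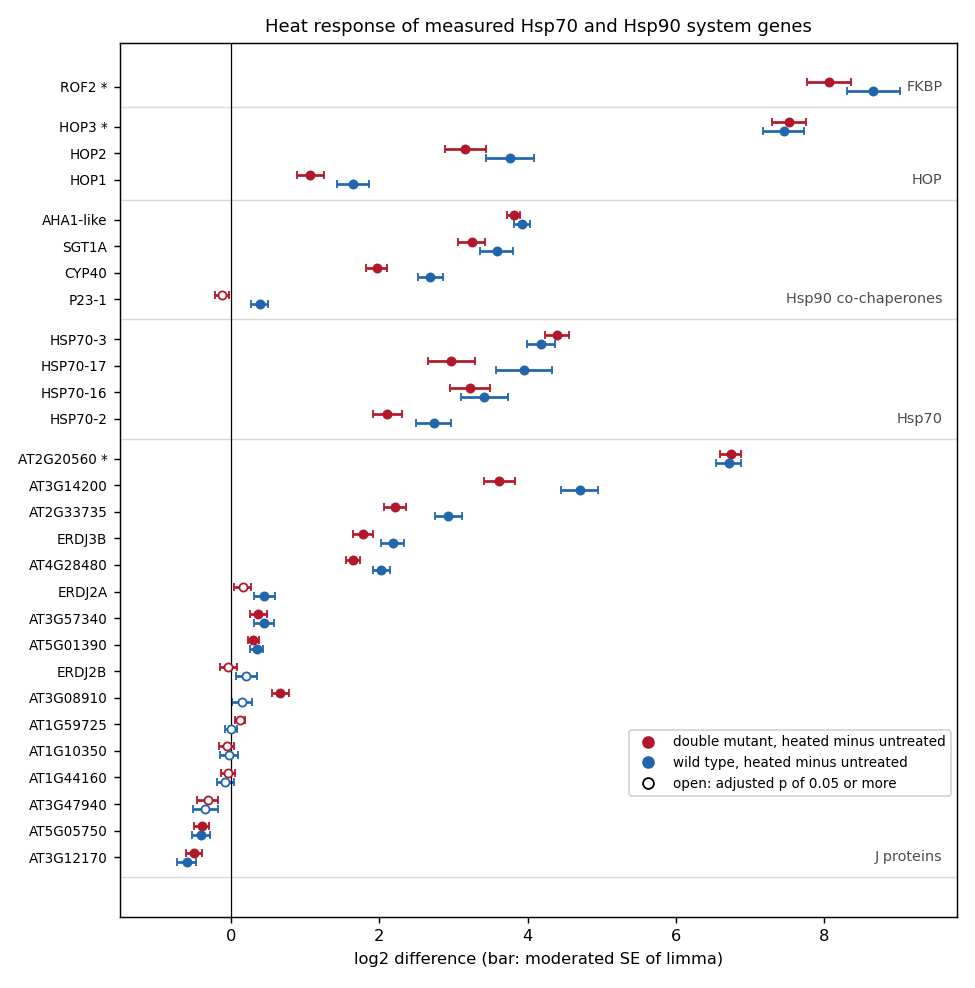
Heat response (heated minus untreated, log2) of the measured genes of the Hsp70 and Hsp90 system, red for the double mutant and blue for the wild type. Bars are the moderated SE of limma, open points did not pass at an adjusted p of 0.05, and asterisks mark ROF2, HOP3 and AT2G20560. The 3 marked genes lie between 6.72 and 8.66, beyond the other genes drawn, whose highest value is 4.70.

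Small heat shock proteins keep unfolding proteins from clumping without using ATP, and they were among the nearest profiles to ROF2, HOP3 and AT2G20560. All 7 measured of 15 listed rose, by 3.48 (HSP15.4) to 9.18 (HSP17.6C-CI) in the double mutant and by 4.01 to 9.46 in the wild type, for the same genes. Likeness of profile was taken as the root mean square difference of log2 signals over the 12 arrays, each probe set centred on its own mean, among 13435 other probe sets with 1 gene. The nearest profile to ROF2 was that of HSP17.6B-CI, at 0.29 (r = 0.999), followed by the small heat shock protein gene AT1G52560 at 0.31, HOP3 at 0.48, HSP17.6C-CI at 0.55 and HSP22.0 at 0.60. The nearest to HOP3 was again HSP17.6B-CI at 0.31, followed by HSP23.5 and HSP15.7 at 0.42 each, ROF2 at 0.48 and AT2G20560 at 0.53.

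The nearest profile to AT2G20560 was that of AT5G07330 at 0.28, followed by HSP15.7, also near HOP3, at 0.38, AT1G54050 at 0.40, AT1G72660 at 0.47 and AT1G71000 at 0.50. AT1G71000, which is in none of the gene lists used here, rose by 5.53 in the double mutant and 6.28 in the wild type. Likeness of profile is a description over 12 arrays that form 2 clusters, heated and untreated, and genes with large rises share that split. HSP23.5, a neighbour of HOP3 by profile, passed between genotypes in untreated plants. It was 1.08 higher in double mutants than in wild type (adjusted p = 0.0131), whereas HOP3 was 0.28 higher and did not pass. The HSP23.5 call was lost with a replicate block, without untreated wild type replicate 2 and with only the compared groups in the fit. The difference between the 2 genes was not tested.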

How the data were processed

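Signals of 12 arrays were used as the log2 values deposited by the authors, made with RMA of the affy package per the submitters' processing notes (versions not given in the sources used here). Of 22810 probe sets, 64 controls were left out. Single genes were assigned to 13513 probe sets, several to 503 and none to 8730. Of the first, 13436 matched RefSeq TAIR10.1 by gene number, which gave the locus. Some protein names and all roles come from general knowledge.

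All 12 arrays entered 1 limma model of 4 group means (8 residual degrees of freedom, 3.22 prior ones), with two-sided moderated tests and Benjamini-Hochberg adjustment over all 22746 probe sets at 0.05. Errors of differences are moderated SE, errors of means are SD, and the number of arrays limits the precision. The procedure was run on simulated data with independent noise. Arrays that deviate together over many probe sets were not simulated.

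The 3 genes and all gene lists were chosen with earlier results of these data known. A gene with several probe sets used the one with the highest mean. Genes named are the 3 members, measured genes of the chaperone lists, the extremes of the small heat shock proteins and the 5 nearest profiles per member. Markers and HSP23.5 without heat were named after their values were seen.

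Residuals of same-numbered arrays correlated at -0.348 to 0.265, with 3 of 15 pairs above 0.1, and the numbers were treated as unpaired. Alternatives were a replicate block, quantile normalization, centring on 4 reference genes, a filter keeping the brighter 0.5 of probe sets, leaving out each array, trend and robust moderation, array weights, only the compared groups, and the mean of a gene's probe sets. Figures used matplotlib 3.10.9 under Python 3.11.15 with pandas 2.3.3, and the model limma 3.58.1 in R 4.3.3.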

Additional observations from a re-analysis of the deposited data

Results flagged for a closer look

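In untreated double mutants, 4 of 35 gene profiles of 4 arrays had 1 array far from the others by Dixon's criterion at the 95% level. Chance meets this in about 1 group in 20, but the 35 profiles share the same 4 arrays and are not independent. Whether 4 is more than chance gives was not tested. None of the 4 profiles was that of ROF2, HOP3 or AT2G20560. HSP17.6C-CI read 5.21 on replicate 4, with the others at 4.19 to 4.24. The small heat shock protein gene AT1G52560 read 4.29 on replicate 4, with the others at 3.26 to 3.40. HSP22.0 read 3.89 on replicate 2, with the others at 3.77 to 3.78. The lower quartiles of the arrays ranged over 3.67 to 3.79, so most readings of AT1G52560 and HSP22.0 were near the bottom of the scale. The J protein gene AT3G12170 read 3.99 on replicate 1, with the others at 4.32 to 4.35.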

How the results depend on the processing

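The heat responses of ROF2, HOP3 and AT2G20560 passed in both genotypes under all 20 alternatives, at 7.88 to 8.53, 7.40 to 7.98 and 6.61 to 7.07 in the double mutant and 8.58 to 8.78, 7.36 to 7.58 and 6.62 to 6.84 in the wild type. With a replicate block they were 8.41, 7.76 and 6.83 in the double mutant and 8.63, 7.49 and 6.76 in the wild type, and the block changed no call of these genes. Values near 0 changed sign: the ROF2 difference after heat was 0.016 with quantile normalization, 0.042 with array weights, -0.092 to 0.093 leaving out single arrays and 0.093 without untreated double mutant replicate 4 and heated double mutant replicate 3 together. The difference of the heat responses was -0.78 to -0.26 for ROF2, -0.054 to 0.31 for HOP3 and -0.11 to 0.12 for AT2G20560 leaving out single arrays, and -0.057 for AT2G20560 with array weights. Without the 2 arrays together, HOP3 after heat passed at 0.57. Of the 25 system genes, those called after heat numbered 0 in the report, 1 with the upper probe sets, trend and robust moderation or array weights, 0 to 1 leaving out single arrays, and 2 without the 2 arrays; without heat 1 was called with array weights and 0 to 1 leaving out single arrays. Over all probe sets, calls for the difference of responses (17) were 9 with quantile normalization, 7 in the upper probe sets, 5 with the replicate block, 34 with array weights, 1 (without untreated wild type replicate 2) to 66 (without heated double mutant replicate 3) and 64 without the 2 arrays. Calls after heat (204) were 102 with the block, 683 with array weights, 33 with only the compared groups, 38 (without heated wild type replicate 1) to 1061 (without heated double mutant replicate 3) and 1345 without the 2 arrays. Calls without heat (613) were 275 with quantile normalization, 1561 centred, 109 with the block, 109 with only the compared groups and 113 (without untreated wild type replicate 1) to 862 leaving out single arrays. Heat in the double mutant gave 15057 calls centred, with 12806 higher, against 7725 with 3140 higher, and 6552 to 7624 leaving out single arrays; in the wild type leaving out single arrays gave 3912 (untreated replicate 1) to 6528, against 6027. Centring moved the median of all probe sets to 0.34 for heat in the double mutant, 0.13 for heat in the wild type, -0.19 for the genotypes without heat and 0.18 for the difference of responses, and split the calls for heat in the wild type into 4295 higher and 2093 lower (3112 and 2915 in the report), those without heat into 195 and 1366 (507 and 106) and those of the difference of responses into 10 and 3 (5 and 12). Quantile normalization split calls without heat into 165 and 110 and those of the difference into 4 and 5. Of the 4 reference genes, heat lowered 2 in each genotype and raised 1 in the wild type, so centring carries their own heat response. The causes of the changed counts were not tested. With 1 untreated wild-type array left, that array is assumed to vary like the other groups.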

Other observations

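FKBPs outside the group with tetratricopeptide repeats were counted as well, and those named were chosen after their values were seen. Of 9 measured, from 15 listed, 1 rose in the double mutant and 4 in the wild type, and none fell, where 13.8% of all probe sets rose in the double mutant and 13.7% in the wild type. FKBP43 rose by 1.05 in the double mutant and 1.05 in the wild type. FKBP19, FKBP16-1 and FKBP20-2 rose in the wild type by 0.58, 0.43 and 0.33, while their values in the double mutant, 0.41, -0.03 and 0.20, did not pass. These 3 calls in the wild type were lost under 10, 6 and 8 of 20 alternatives, the replicate block among them for each, and that of FKBP43 was lost without untreated wild type replicate 2. None of the 9 was called in the difference of the heat responses, and FKBP16-1 after heat was 0.50 lower in the double mutant without passing (adjusted p = 0.0559), and it passed under 4 of 20 alternatives.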
